A study of Mus musculus with 191 samples.

Results

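The integrated stress response genes described here were the 9 genes Atf4, Atf5, Ddit3, Trib3, Asns, Fgf21, Psat1, Phgdh and Sesn2, found as the probes that the array annotation pairs with these symbols. Of the 9 genes, 7 had a probe, 10 probes in all of the 25697 on the array. No probe was paired with Trib3 or Fgf21 in the annotation used here, which covers the 14667 probes with processed values, so both genes were not analysed here. The samples were male C57BL/6J mice of 10 to 12 weeks that went through 4 cycles of chronic intermittent ethanol (CIE) vapor or air, each cycle with 4 days of 16 h in the chamber. Treated mice received pyrazole (1 mmol/kg), which blocks alcohol dehydrogenase, together with ethanol (1.6 g/kg) and then ethanol vapor. Control mice received the same pyrazole with saline and then air, so pyrazole was common to all groups. Mice were killed 0, 8 or 120 h after they last left the chamber, and RNA of liver and of 3 brain regions, AMY (amygdala), NAC (nucleus accumbens) and PFC (prefrontal cortex), was hybridized to Illumina MouseRef-8 v2 arrays, 1 per mouse and tissue. Each of the 24 groups held 8 mice, apart from the control livers at 0 h, which were 7. The tissues of a time point came from the same mice, so they were not independent replicates. Brain samples were micropunches and liver samples whole tissue, and in such bulk RNA fewer cells of a type and less RNA per cell cannot be told apart.

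Cells under several kinds of stress phosphorylate the translation factor eIF2α through sensor kinases, which slows protein synthesis while the mRNA of the transcription factor ATF4 is translated more. ATF4 then drives genes for amino acid supply and redox defence and, under prolonged stress, the factor CHOP (gene Ddit3), which is linked to cell death. In liver this response is known from protein misfolding in the endoplasmic reticulum (ER) and from shortage of amino acids. Atf4, Atf5 and Ddit3 encode transcription factors of the response. Asns makes asparagine, Phgdh and Psat1 carry out the first steps of serine synthesis, and Sesn2 encodes sestrin 2, an inhibitor of mTORC1 signalling.

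The promoters of Asns and Ddit3 are shown because Asns fell in liver at 0 h while Ddit3, which passed no test there, had the widest spread among mice. Both were read from RefSeq (GRCm38.p6), from 250 bases before to 50 bases after the start of transcription, in the direction of the gene. Capitals mark a match to the C/EBP-ATF response element, searched as TGATGNAA on both strands. The window of Asns is chr6:7693160-7693459 on the minus strand and that of Ddit3 chr10:127290543-127290842 on the plus strand.
Asns: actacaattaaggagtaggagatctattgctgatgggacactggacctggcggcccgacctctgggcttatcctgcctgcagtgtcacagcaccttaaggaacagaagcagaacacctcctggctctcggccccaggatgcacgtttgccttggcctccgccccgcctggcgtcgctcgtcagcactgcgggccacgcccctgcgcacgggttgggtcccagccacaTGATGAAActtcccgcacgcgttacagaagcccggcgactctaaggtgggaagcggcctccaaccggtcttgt
Ddit3: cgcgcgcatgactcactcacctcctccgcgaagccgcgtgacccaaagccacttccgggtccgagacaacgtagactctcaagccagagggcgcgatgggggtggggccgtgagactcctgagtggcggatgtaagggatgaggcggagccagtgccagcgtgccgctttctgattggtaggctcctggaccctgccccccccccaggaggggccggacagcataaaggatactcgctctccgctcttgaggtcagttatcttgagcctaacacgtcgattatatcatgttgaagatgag
The Asns match, TGATGAAA, began 23 bases before the start, and the Ddit3 window held no match to these letters. Of 32851 promoter windows of the genome 1304 (3.97%) held a match, and of the 11 windows of the 9 genes 3 did. The others were TTACATCA in Trib3 and TTGCATCA in Fgf21, both on the opposite strand of the gene. A match is a description of sequence only.

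To be tested, a probe had to be detected (p of at most 0.05 against background) on over 80% of a tissue's arrays. The number tested was 10530 in liver, and in brain 12588 (AMY), 12659 (NAC) and 12835 (PFC). The median intensity of an array lay between 90.3 and 126, and 11297 to 14833 probes were detected on it. All 6 hepatocyte marker genes with a probe passed this filter in liver and only 1 or 2 of them in a brain region. The Alb probe was dim even in liver, at a normalized intensity of 111 to 146 in controls at 0 h. All 8 astrocyte markers passed in each brain region. Of the 7 genes all passed in brain and 5 in liver, where Psat1 was detected on 35 of 47 arrays and Phgdh on 9. Intensities are given after quantile normalization within the tissue, unless they are called raw. The number of arrays limits the precision, and the p-values are those of limma, adjusted over all probes of the tissue by the method of Benjamini and Hochberg.

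In liver at 0 h the transcription factors did not move alike: Atf4 rose, Atf5 fell, and Ddit3 was very high in some treated mice and at the control level in others. Of the 5 genes tested 2 rose (Atf4 and Sesn2) and 2 fell (Atf5 and Asns), against 20.4% of all liver probes that passed the same test. These 4 calls had adjusted p-values close to 0.05, and none of them passed when no detection filter was applied, which raised the number of probes tested. At 8 h only Sesn2 passed, in a tissue where 30.9% of probes did. No member passed in liver at 120 h, where 0% of the probes did and 0 of the 5 genes had an unadjusted p under 0.05 in limma.

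Ddit3 (chr10:127290790-127296290) had the widest spread of the 7 genes. Its liver intensity in controls at 0 h was 131 to 156 with a median of 144. The treated mice reached from 127 to 1710.0 with a median of 145. The 2 highest treated mice, animals 9 and 1, were at 1710.0 and 1429.6, animal 57 followed at 377, and the other 5 lay between 127 and 152. Thus 3 of 8 treated mice were above every control and the others overlapped with them or lay below. At 8 h controls were at 112 to 127, animal 59 was at 2792, animal 41 at 464 and animal 19 at 203, and 5 of 8 treated mice exceeded every control. The difference between the group means was 0.99 ± 0.56 on the log2 scale at 0 h (SE, adjusted p = 0.226) and 0.98 ± 0.52 at 8 h (adjusted p = 0.161), and neither passed the test. Without animal 59 the difference at 8 h was 0.47, and without animal 9 that at 0 h was 0.62. The second Ddit3 probe gave 0.64 at 0 h and 0.80 at 8 h, also not past the threshold. At 120 h treated mice (118 to 135) lay within or just below the range of controls (119 to 146).

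**Figure D1:**
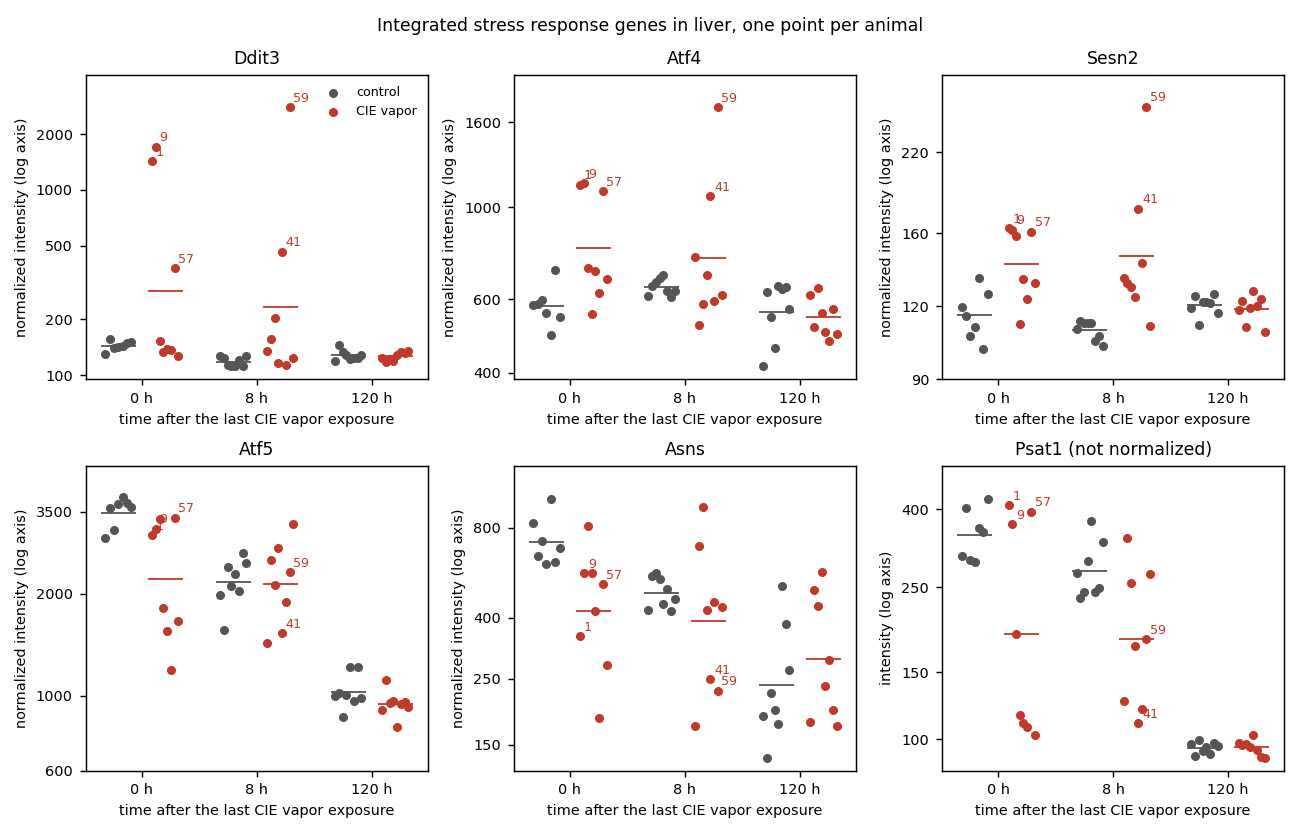
Normalized intensity (log axis) of 6 member genes (Psat1 raw) in the liver of controls and CIE vapor mice at 0, 8 and 120 h, with 1 point per mouse and a line at the mean log2 value of each group. The Ddit3 points of animals 1, 9 and 57 at 0 h and of animals 59 and 41 at 8 h stand far above the controls, which stay between 112 and 156.

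Atf4 (chr15:80255184-80257545) was at 492.7 to 707 in liver controls at 0 h and at 554 to 1141 in treated mice, with medians of 583 and 708. The 3 highest were animals 9, 57 and 1, the same mice that led Ddit3, at 1141, 1094 and 1133. The rise of 0.47 ± 0.16 on the log2 scale, or 1.38-fold, had an adjusted p of 0.05 to 2 significant digits and was called at 0.04998635. It was lost in 11 of the 15 fits that left out 1 mouse (adjusted p from 0.0198 to 0.0915). At 8 h animals 59 and 41 were again the highest, at 1738 and 1061, over controls of 607 to 688. The group difference at that time was 0.23 ± 0.19 (adjusted p = 0.369).

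Atf5 (chr7:44812256-44816658) was lower in treated liver at 0 h, by 0.65 ± 0.21 on the log2 scale (0.637-fold, adjusted p = 0.0437). This call was lost in 11 of the 15 fits that left out 1 mouse (adjusted p from 0.0278 to 0.0772). Controls were at 2924 to 3862 with a median of 3609. The 8 treated mice fell into 4 between 2981 and 3357, inside the control range, and 4 between 1194 and 1815, below it. The 4 inside the range were animals 57, 15, 9 and 1, the 4 mice of highest Atf4. At 8 h treated and control medians were 2217 and 2203, a difference of −0.01 ± 0.15 (adjusted p = 0.952).

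Among the targets, Asns (chr6:7675165-7693209), the asparagine synthetase, was the gene of the largest fall in liver at 0 h, among those tested. Treated mice were at 184 to 812 and controls at 603 to 1001. All treated mice except animal 15, at 812, lay below every control. The log2 difference was −0.77 ± 0.25 (0.588-fold, adjusted p = 0.0448), and a second Asns probe gave −0.43 (adjusted p = 0.0325). With 1 mouse left out at a time, the call of the brightest probe was lost in 11 of 15 fits (adjusted p from 0.0155 to 0.0832). At 8 h the spread of treated mice, 173 to 940, went past the controls (420 to 565) on both sides, and the difference of −0.31 ± 0.27 did not pass (adjusted p = 0.407). The order of mice was not that of Ddit3: at 8 h animals 59 and 41 were among the 3 lowest for Asns, at 228 and 249, while animals 19 and 11 were the highest, at 940 and 694.

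Psat1 (chr19:15905123-15925059), phosphoserine aminotransferase, missed the detection filter in liver and was tested only with a looser one, detection on more than 50% of arrays. Raw intensities of controls at 0 h were 291 to 426. In treated mice they were 410, 395 and 365 in animals 1, 57 and 9, 188 in animal 15, and 103 to 115 in the other 4. The 3 mice within the control range were the 3 of highest Ddit3 and Atf4. With the looser filter Psat1 fell by 0.90 ± 0.29 at 0 h (adjusted p = 0.0445) and by 0.58 ± 0.20 at 8 h (adjusted p = 0.0373), where 19% and 29% of probes passed. At 120 h controls were at 90.7 to 99.5 and treated mice at 89.6 to 102, and Psat1 was detected on 3 and 1 of 8 arrays. Phgdh (chr3:98313171-98339969), the dehydrogenase before it in the same pathway, was between 91 and 110 raw in every liver group, near background, and was not tested there.

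Sesn2 (chr4:132492800-132510460) was the only member of the 5 tested under the 80% detection filter that passed in liver at both 0 and 8 h. At 0 h controls were at 101 to 134, and animals 1, 9, 57 and 15 were above all of them, at 163, 162, 161 and 158. The rise was 0.29 ± 0.090 (1.22-fold, adjusted p = 0.0326), and the call was lost in 8 of the 15 fits that left out 1 mouse (adjusted p up to 0.0681). At 8 h controls were at 103 to 113 and treated mice at 111 to 263, with animals 59 (263) and 41 (176) at the top, and 7 of 8 treated mice were above every control. The rise was 0.42 ± 0.13 (1.34-fold, adjusted p = 0.0204), and without animal 59 it was 0.30 (adjusted p = 0.00485). With background subtraction (neqc) the rises of this dim probe were larger, 0.77 at 0 h and 1.06 at 8 h. At 120 h the groups overlapped again (112 to 126 in controls, 108 to 127 in treated mice), and the effect was 0.44 ± 0.14 lower than at 8 h (adjusted p = 0.0213, a contrast in which 15% of liver probes passed).

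Markers of cell types were read in the same liver fits, where 20.4% of all probes were called at 0 h and 30.9% at 8 h. Of 5 Kupffer cell markers tested 4 rose at 0 h and 4 at 8 h, and their summed intensity went from 1537 to 3045 in controls to 2390 to 3633 in treated mice at 0 h. Both red blood cell markers fell at both times, with sums of 2146 to 6063 in controls and 536 to 2076 in treated mice at 0 h. Of 6 hepatocyte markers 2 rose and 1 fell at 0 h, and the sums of the groups overlapped (58696 to 67976 and 65042 to 71663). At 8 h none of the 6 rose and 2 fell, Ass1 by 0.35 and Ttr by 0.09, which is near the share of all probes. The sums overlapped again (64152 to 69852 and 64393 to 73724). Of 4 endothelial markers 2 rose at each time, and their sums at 0 h did not overlap (954 to 1016 in controls, 1055 to 1344 in treated mice). Of 4 stellate cell markers 1 rose and 1 fell at each time, with sums of 2892 to 4147 and 2785 to 4837 at 0 h. The part of these markers in the results for the stress response genes was not tested.

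At 8 h in brain Ddit3 was higher in treated mice in AMY by 0.18 ± 0.045 on the log2 scale (adjusted p = 0.0312) and in PFC by 0.26 ± 0.075 (adjusted p = 0.048). In NAC the difference of 0.15 ± 0.046 fell just short (adjusted p = 0.054). Ddit3 was the only one of 7 genes called in AMY and in PFC at this time, where 2.88% and 5.72% of probes passed. In NAC none was called against 6.94% of probes, and 3 of the 7 had an unadjusted p under 0.05 in limma. The second Ddit3 probe gave 0.12 in AMY (adjusted p = 0.136), 0.05 in NAC and 0.25 in PFC (adjusted p = 0.0153).

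Ddit3 in AMY at 8 h was at 231 to 259 in controls and at 241 to 307 in treated mice, and 6 of 8 treated mice were above every control. In PFC controls were at 259.8 to 315 and treated mice at 289.6 to 462, with 4 above every control. In NAC controls were at 266 to 295 and treated mice at 277 to 363. By the column numbers, taken here as animal numbers, the highest mouse in all 3 regions was animal 59 (AMY 307, NAC 363, PFC 462). Animal 59 was also the highest in liver. Animal 41, second in liver, had 290.4, 348 and 375 in the same order. When animal 59 was left out the AMY difference became 0.16 (adjusted p = 0.0434), the PFC difference 0.20 (adjusted p = 0.0383) and the NAC difference 0.12 (adjusted p = 0.0719). Across the 16 fits that each left out 1 mouse, the Ddit3 call was lost in 9 in AMY (adjusted p up to 0.0634) and in 12 in PFC (adjusted p up to 0.0878), with other mice than animal 59, and the PFC call was also lost with neqc, without the detection filter and with the processed values.

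**Figure D2:**
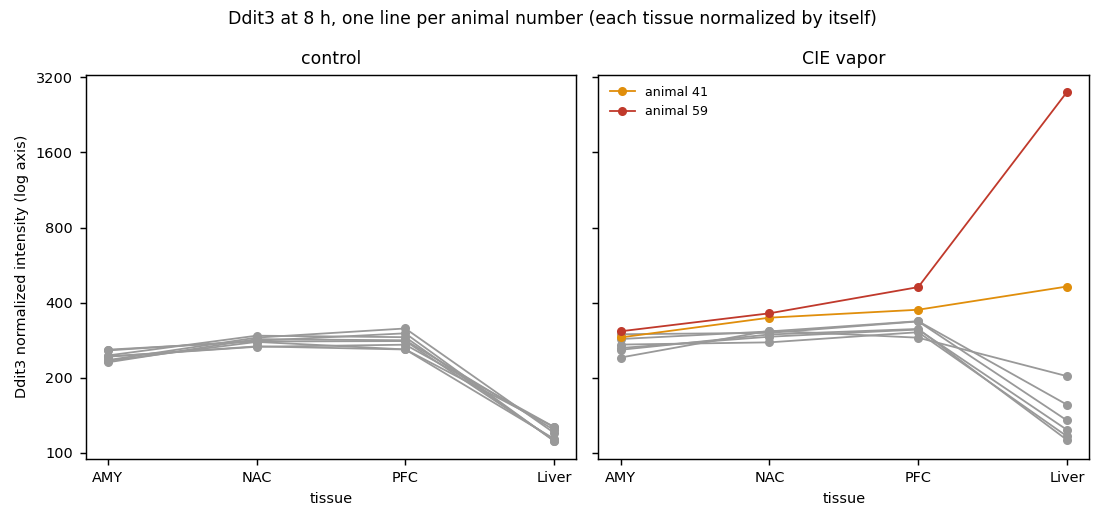
Normalized intensity (log axis) of Ddit3 at 8 h by tissue, in controls and in CIE vapor mice, with 1 point per mouse and lines that join the tissues of an animal number. Animal 59 is the highest treated mouse in each of the 4 tissues, from 307 in AMY to 2792 in liver.

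At 0 h Phgdh was the only member called in brain, in NAC and AMY. Phgdh in NAC was at 218 to 257 in controls and at 179.7 to 218 in treated mice, and all 8 treated mice were below every control. It fell by 0.22 ± 0.043 on the log2 scale (0.859-fold, adjusted p = 0.00586), the only call of 7 genes in a region where 7.3% of probes passed. In AMY Phgdh fell by 0.17 ± 0.046 (adjusted p = 0.0432), again the only call, with 3.88% of probes called, and 5 of 8 treated mice were below every control. With 1 mouse left out at a time, the NAC call was kept in all 16 fits (adjusted p up to 0.0154) and the AMY call was lost in 11 of 16 (adjusted p up to 0.0778). Psat1 in NAC was at 876 to 1155 in controls and 814 to 1014 in treated mice, a difference of −0.18 ± 0.058 (adjusted p = 0.0698). In PFC 1.48% of probes passed and none of the 7 genes did, with 0 at an unadjusted p under 0.05 in limma.

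Phgdh and Psat1 are rich in astrocytes, and none of the 8 astrocyte markers passed in NAC or AMY at 0 h. Their summed intensity in NAC was 10176 to 12876 in controls and 11290 to 13257 in treated mice. Among 7 oligodendrocyte markers 3 fell in NAC at 0 h, with overlapping sums (15613 to 23139 and 15576 to 21455). The part of astrocytes or oligodendrocytes in the Phgdh result was not tested. By 8 h the NAC effect had moved up for both genes, by 0.33 ± 0.071 for Psat1 (adjusted p = 0.00776) and by 0.20 ± 0.059 for Phgdh (adjusted p = 0.0495) relative to 0 h, in a contrast where 2.46% of probes passed. Between 0 and 120 h the Phgdh effect moved up by 0.28 ± 0.059 (adjusted p = 0.00527, with 1.99% of probes called). In liver none of the 5 genes passed for the change of the effect from 0 to 8 h (4.92% of probes called), and 1 had an unadjusted p under 0.05 in limma.

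None of the 7 genes was called at 120 h in AMY, NAC or PFC, where 0% of probes passed in each region. The count at an unadjusted p under 0.05 in limma was 1 in AMY (Phgdh), 0 in NAC and 0 in PFC.

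**Figure D3:**
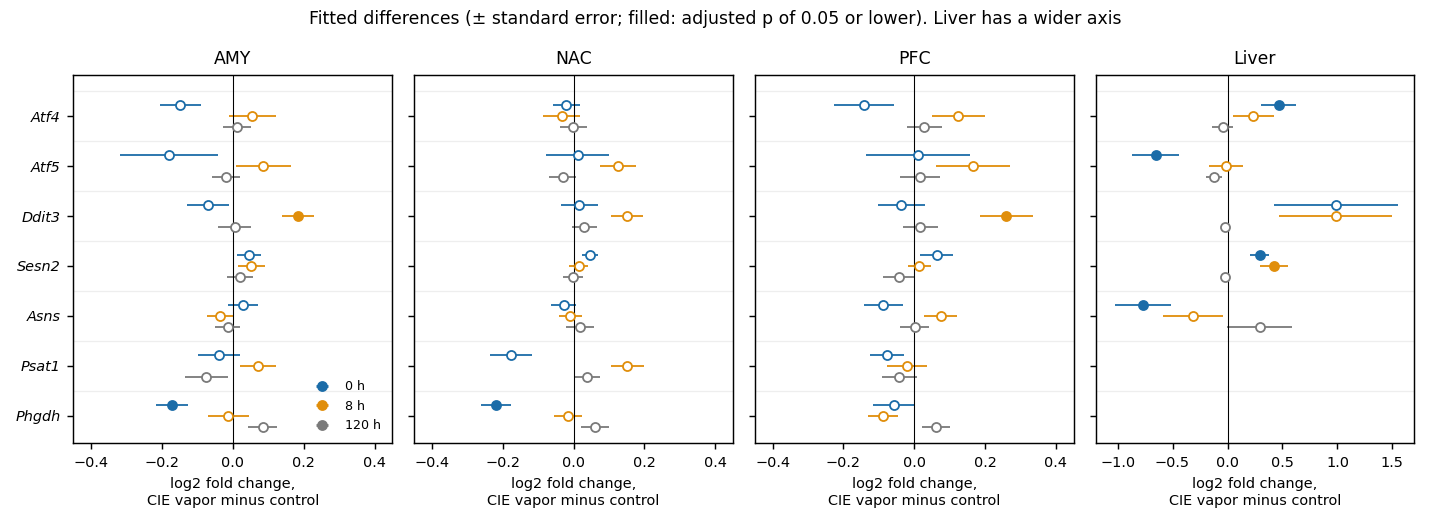
Log2 difference between CIE vapor and control mice for each member gene, by tissue and time point, with bars of 1 standard error and filled points for an adjusted p of 0.05 or lower. Liver effects range from −0.77 for Asns to 0.99 for Ddit3 at 0 h, and the brain effects stay within 0.26 of 0 on this scale.

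To compare liver with brain directly, the arrays of all tissues were normalized together and fitted in 1 limma model with 1 residual variance per probe. This variance averages over tissues that differ, since the SD of Ddit3 was 1.60 and 1.59 among treated livers at 0 and 8 h and 0.08 to 0.21 in treated brain. Tissue and deposited table coincided, so a difference between tables cannot be told apart from one between tissues. A probe entered this fit if it passed the detection filter in at least 1 tissue. Psat1 and Phgdh missed the filter in liver and entered through brain, so their liver values include signals that were not detected. At 0 h the effect in liver differed from the mean effect of the 3 regions for all 7 genes, these 2 included. The difference was upward for 4 and downward for 3, where 33.9% of probes passed. Ddit3 was 0.94 ± 0.26 higher (adjusted p = 0.00197), Atf4 0.50 ± 0.10 (adjusted p = 2.86e-05) and Sesn2 0.32 ± 0.074 (adjusted p = 0.00018). Psat1 was −0.86 ± 0.15, Asns −0.66 ± 0.17 and Atf5 −0.49 ± 0.13, all lower in liver. The other Asns probes gave −0.45 (adjusted p = 0.000199) and −0.09 (adjusted p = 0.228). Phgdh differed by 0.15 ± 0.050, with a liver signal that was mostly not detected.

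At 8 h 3 genes differed between liver and brain, against 29.5% of probes. These were Sesn2 (0.49 ± 0.072, adjusted p = 4.65e-09), Psat1 (−0.71 ± 0.14, adjusted p = 2.38e-05) and Ddit3 (0.78 ± 0.25, adjusted p = 0.0108). Of these, Psat1 missed the liver filter and entered the fit through brain. Ddit3 thus passed here at both times although it did not pass in the fits of liver alone, which use the spread of the liver samples. At 120 h none of the 7 differed (0.661% of probes called), and 0 had an unadjusted p under 0.05 in limma.

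The level of the genes in control mice also separated the tissues, with all 7 called between liver and brain, as were 93.9% of probes. Atf5 was 8.61-fold higher in liver (3.11 ± 0.053 on the log2 scale), and its mean was 10.86 in liver against 7.59 in NAC, 7.79 in AMY and 7.96 in PFC. In liver minus brain, Asns was at −2.16 and Psat1, which missed the liver filter, at −1.84. Atf4 and Sesn2 were slightly higher in liver, by 0.27 and 0.22, and Ddit3 was 0.73 lower. The size depended on the probe. The other Asns probes gave −1.28 and −0.48, and the second Ddit3 probe gave −0.20 (adjusted p = 0.0357). Phgdh was 0.96 lower, a value limited by the background in liver.

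Among brain regions 58% of probes differed between AMY and NAC, 67.2% between AMY and PFC and 74.2% between NAC and PFC. By the brightest probe of each gene, the order of mean log2 level in controls was PFC, AMY, NAC for 4 genes. These were Atf4 (9.36, 9.15 and 8.95), Atf5, Asns (11.37, 11.15 and 10.97) and Sesn2 (6.87, 6.80 and 6.72). The order of Asns depended on the probe. The second Asns probe was at 8.87 in AMY, 8.83 in PFC and 8.73 in NAC, and PFC did not differ from AMY (adjusted p = 0.522) or NAC (0.0662). Ddit3 and Psat1 were highest in NAC, at 8.20 and 9.96. For the second Ddit3 probe NAC did not differ from PFC (adjusted p = 0.467) or AMY (0.131). Phgdh was lowest in PFC, at 7.41. With the brightest probes, neighbours that did not pass the test were AMY and NAC for Asns (adjusted p = 0.0662) and Phgdh (0.282). The others were AMY and PFC for Psat1 (0.472), Ddit3 (0.991) and Sesn2 (0.0691).

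**Figure D4:**
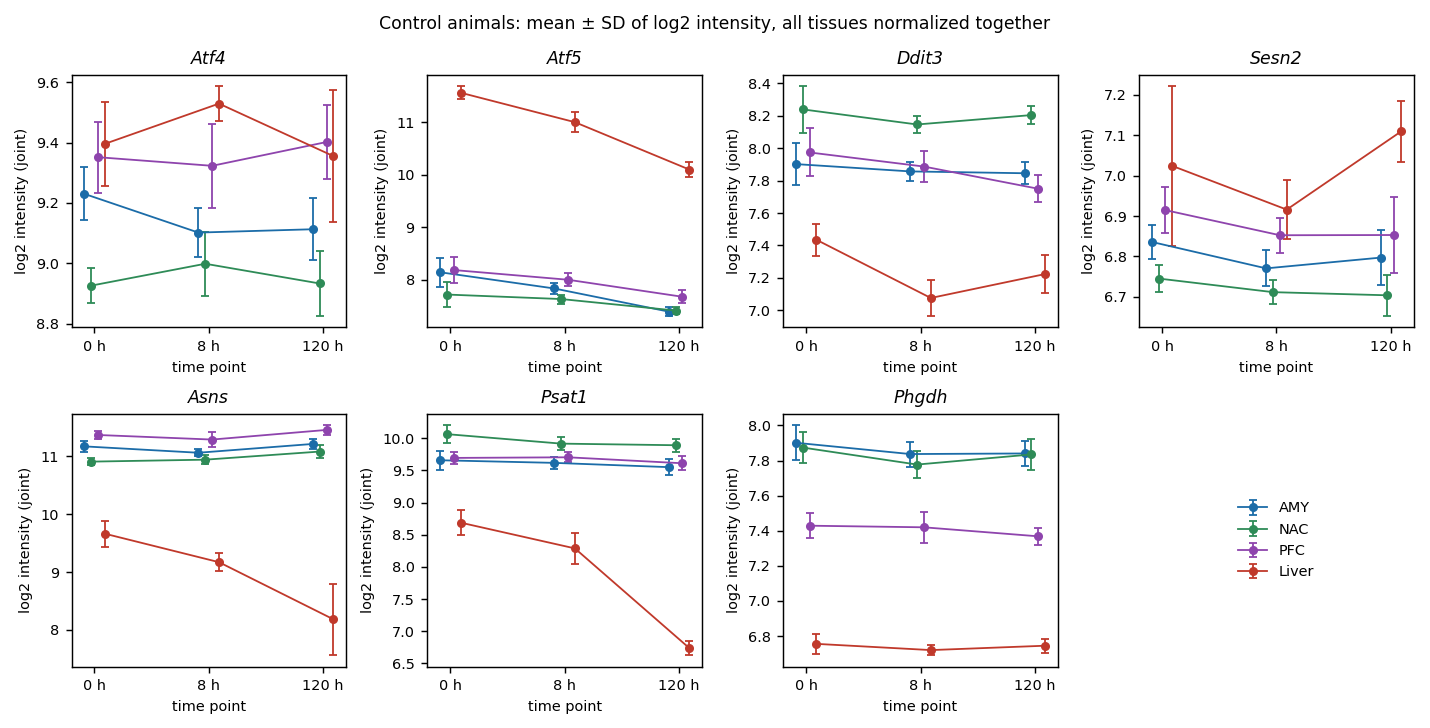
Mean log2 intensity of each member gene in control mice by tissue and time point, with all tissues normalized together and bars of 1 SD over mice (8 per point, 7 in liver at 0 h). Atf5 is highest in liver and declines there to 120 h, as do Asns and Psat1, which lie below their brain levels.

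Control mice differed between time points too, in contrasts that were added after the data were seen. From 0 to 120 h Atf5 in control liver fell by 1.76 ± 0.17 on the log2 scale (adjusted p = 1.5e-11), from a median of 3609 to 999.5, and Asns by 1.59 ± 0.30 (adjusted p = 4.27e-05), with 37.8% of liver probes called. Psat1 fell by 1.74 ± 0.22 under the looser filter (adjusted p = 1.7e-08, with 35.9% called). These falls in controls were larger than any CIE effect on the same genes in liver. From 0 to 8 h Atf5 had fallen by 0.68 (adjusted p = 0.00783, with 5.46% called).

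The fall of Atf5 in controls by 120 h was also measured in each brain region, by 0.76 in AMY (adjusted p = 6.14e-07, 10.9% of probes called), 0.31 in NAC (adjusted p = 0.00233, 6.87% called) and 0.51 in PFC (adjusted p = 0.00155, 21.5% called). Ddit3 fell by 0.23 in PFC controls (adjusted p = 0.014). In NAC Psat1 fell by 0.16 (adjusted p = 0.0392) and Asns rose by 0.16 (adjusted p = 0.00427). Time since the last pyrazole injection, the animals of a time point and any batch of arrays cannot be told apart from time itself.

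Upstream of ATF4, 7 genes of the eIF2 kinases, their regulators and the phosphatase that reverses them were tested in liver. At 0 h only Dnajc3, a co-chaperone that inhibits PERK, passed, where 20.4% of all probes did, and it fell by 1.25 ± 0.069 (adjusted p = 1.15e-07). It was at 2279 to 3165 in controls and at 1048 to 1275 in the 8 treated mice, with no overlap. Just short of the threshold were Ppp1r15a (GADD34), the stress-induced phosphatase subunit, at 0.46 (adjusted p = 0.0554), and Eif2ak2, the kinase PKR, at −0.31 (adjusted p = 0.0595). At 8 h 3 genes rose and 2 fell, beside 30.9% of all probes called. Impact, an inhibitor of GCN2 activation, rose by 0.82 and Eif2ak1, the kinase HRI, by 0.16, while Dnajc3 fell by 0.70 and Ppp1r15b, a phosphatase subunit, by 0.23. Ppp1r15a rose by 0.53 (adjusted p = 0.0445). The median log2 difference of the list was −0.02 at 0 h and 0.08 at 8 h, beside 0.00420 and 0.00239 over all liver probes.

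Of 11 other targets of ATF4 and CHOP tested in liver, 3 passed at 0 h and 4 at 8 h, all upward, beside 20.4% and 30.9% of all probes called in either direction, which is near these shares. At 0 h they were Eif4ebp1 (0.85, adjusted p = 0.0103), an inhibitor of cap-dependent translation, Gpt2 (0.79, adjusted p = 0.0313), an alanine aminotransferase, and Cebpb (0.62, adjusted p = 0.0316), a transcription factor of the C/EBP family. At 8 h they were Cebpb (0.84), Herpud1 (1.25), an ER-associated degradation factor, Eif4ebp1 (0.95) and Nupr1 (0.52). The medians of the list were 0.38 and 0.52. Of the amino acid transporters Slc7a5 rose at 0 h (0.38, adjusted p = 0.00254) and Slc6a9 at 8 h (0.82, adjusted p = 0.000634), 1 of 3 genes tested each time.

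Of the tRNA synthetases, also targets of ATF4, 2 of 10 passed at each time, a share not above that of all liver probes (20.4% at 0 h and 30.9% at 8 h). Nars and Tars fell at 0 h by 0.49 and 0.35, and Eprs and Iars rose at 8 h by 0.30 and 0.26. The medians were −0.07 and 0.19. Shmt2, a mitochondrial enzyme of one-carbon metabolism and the only one of its list tested, fell by 0.50 at 0 h (adjusted p = 0.0227).

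The ER chaperones had the most called genes of these lists at 0 h. Of 12 genes tested 9 fell and 1 rose, beside 20.4% of all probes called, with a median of −0.86. Hsp90b1, the chaperone GRP94, fell by 1.40, and all treated mice, at 2440 to 3617, were below all controls, at 6754 to 10769. Pdia4, a disulfide isomerase, fell by 1.79, Hyou1 by 0.85 and Edem1 by 0.55. At 8 h 6 rose and 2 fell, beside 30.9% of all probes, with a median of 0.21. Creld2 rose by 2.07 and Hspa5, the chaperone BiP, by 0.70, while Edem1 and Pdia6 fell by 0.36 and 0.53. The Hspa5 probe was dim, at 112 to 144 in controls at 8 h. All these differences are against controls of the same time, and some controls changed between times. Creld2 controls were at 909 to 2305 at 0 h, 247 to 333 at 8 h and 234 to 476 at 120 h. Hsp90b1 controls were at 6754 to 10769, 2430 to 3443 and 2308 to 2823 at these times. Edem1 controls were at 199 to 245, 193 to 243 and 139 to 160. No test of these changes is given here. At 8 h 2 of 4 p53 targets rose, Trp53inp1 by 0.79 and Mdm2 by 0.45, and none of the 4 passed at 0 h.

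**Figure D5:**
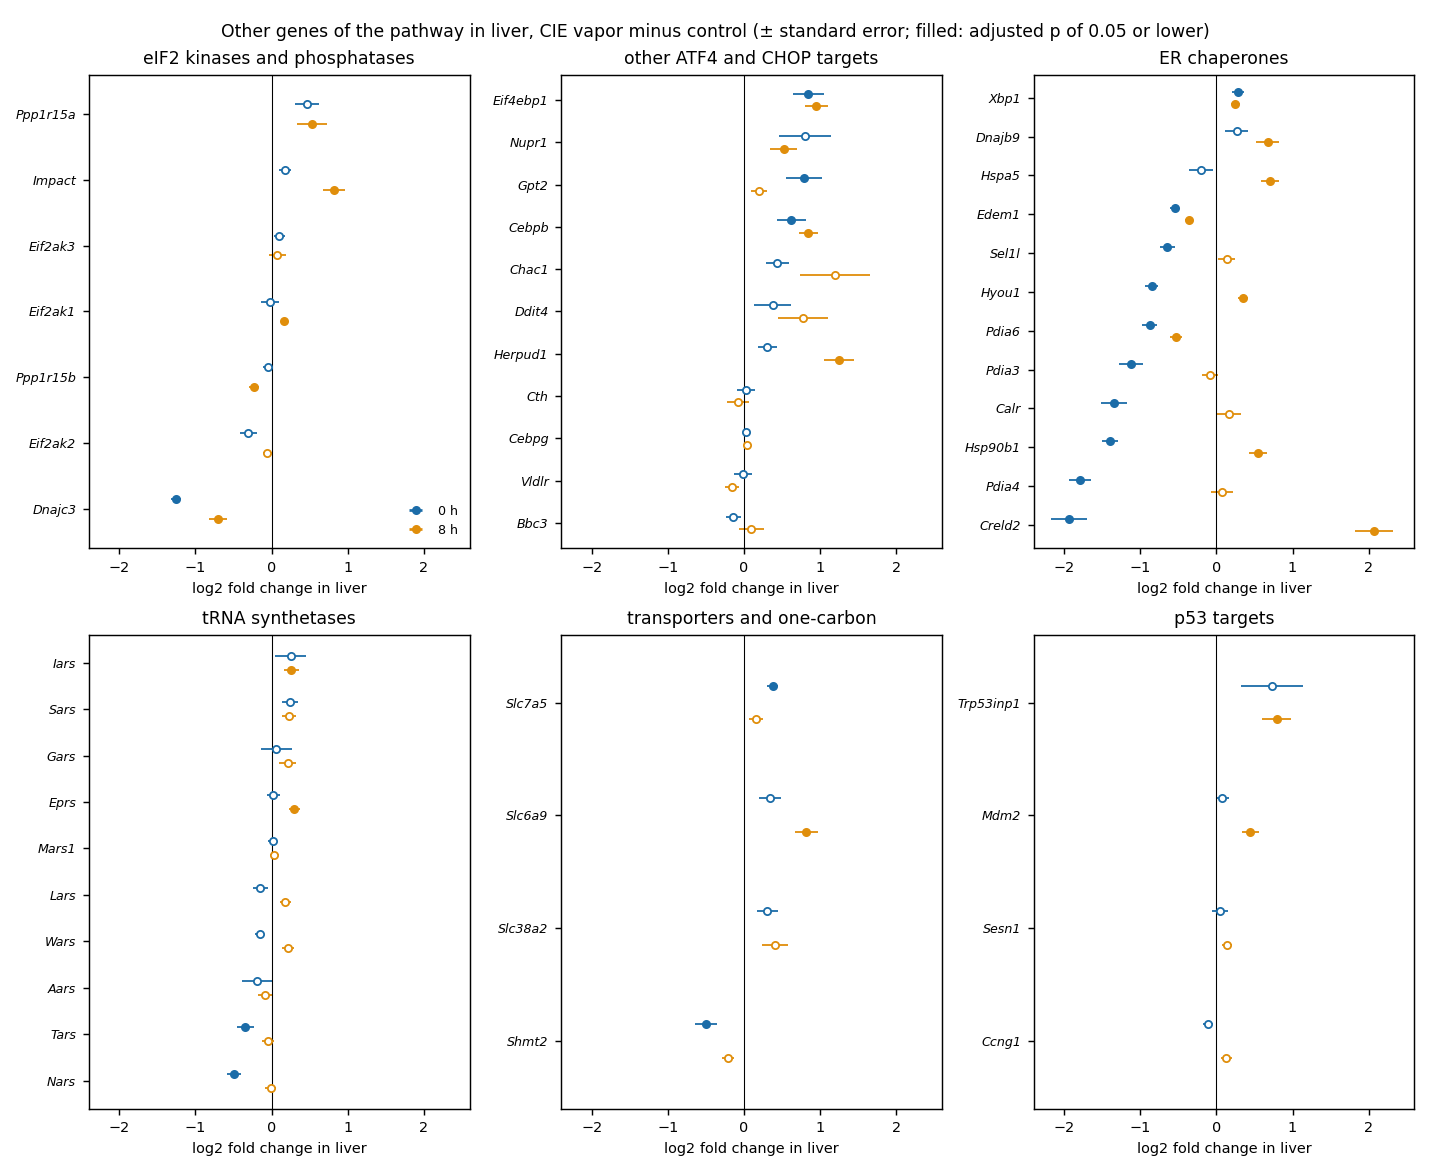
Log2 difference between CIE vapor and control livers at 0 and 8 h for the other genes of the pathway, by list, with bars of 1 standard error and filled points for an adjusted p of 0.05 or lower. The ER chaperones lie mostly left of 0 at 0 h, and Creld2 moves from −1.93 at 0 h to 2.07 at 8 h. Each difference is taken against the controls of its own time, and Creld2 controls were at 909 to 2305 at 0 h and 247 to 333 at 8 h.

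The mice of highest Ddit3 were also followed through single pathway genes, chosen after their values were seen. At 0 h Nupr1, a stress-induced chromatin protein, was at 581, 587 and 622 in animals 1, 9 and 57, with controls at 139 to 169 and the other treated mice at 140.1 to 209. Trp53inp1 was at 2402, 2050.4 and 1476 in these mice and at 418 to 843 in controls. Gpt2 was at 5276, 6133 and 4707, over controls of 1708 to 2482. The same 3 mice did not lead in Chac1, a glutathione-degrading enzyme and a target of CHOP, at 114, 117 and 172, where animal 31 was the highest at 229.

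At 8 h animal 59 had Chac1 at 2135 and Ddit4, an inhibitor of mTORC1, at 1806, with controls at 96.6 to 118 and 208 to 277. Animal 41 followed in both, at 469.7 and 552. Creld2 was at 4110.0 in animal 59 and at 753 to 1411 in the other treated mice, all above the controls (247 to 333). Herpud1 was at 17152 in animal 59 and likewise above the controls (2556 to 4121) in every treated mouse. Nupr1 had a different order, with animal 19 at 395 and animal 59 at 226. Thus Creld2 and Herpud1 were above the 8 h controls in all 8 treated livers, while Ddit3 and Chac1 were far above controls in few. Controls of other times were not all as low. Creld2 controls were at 909 to 2305 at 0 h and 234 to 476 at 120 h. Herpud1 controls were at 3764 to 6083 at 0 h and 5293 to 7661 at 120 h. Treated mice at 8 h were at 5740 to 17152 for Herpud1.

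In brain, several targets of ATF4 and CHOP other than the members rose by small amounts. Of 12 tested at 8 h 3 rose in AMY, 4 in NAC and 4 in PFC, and 1 fell in PFC (Bbc3, −0.20), where 2.88%, 6.94% and 5.72% of all probes of these regions were called. Ddit4 passed in all 3 regions, at 0.48 in AMY (adjusted p = 0.00851), 0.45 in NAC (adjusted p = 0.00146) and 0.31 in PFC, and Cebpb did at 0.21, 0.24 and 0.29. Chac1 rose in PFC by 0.42, as did Jdp2, a repressor of the AP-1 family. Eif4ebp1 rose in AMY and NAC (0.21 and 0.19) and Gpt2 in NAC (0.21).

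At 0 h 3 of the 12 rose in AMY (Herpud1 0.24, Cebpb 0.25, Bbc3 0.19), 2 rose and 1 fell in NAC (Cebpb 0.32, Chac1 0.18, Aldh18a1 −0.13) and none passed in PFC, where 3.88%, 7.3% and 1.48% of all probes were called. At 8 h 2.88% of all probes were called in AMY, 6.94% in NAC and 5.72% in PFC. Beside these shares, single genes of the other lists were called at that time. The seryl-tRNA synthetase Sars rose in AMY (0.25) and PFC (0.19) and the PKR gene Eif2ak2 in AMY (0.20). The chaperone genes Dnajb9 and Creld2 rose in AMY (0.28) and NAC (0.20), respectively. The p53 target Cdkn1a, which encodes p21, rose in all 3 regions (0.83 in AMY, 0.61 in NAC, 0.75 in PFC). No gene of these lists passed in any tissue at 120 h.

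Likeness to other genes was measured over the 12 log2 differences of 4 tissues and 3 times, for 6396 genes tested in every tissue. For Ddit3 the most alike were Rnf4 (r = 0.989) and Cd84 (r = 0.980), for Atf4 Egr1 (0.977) and Bcor (0.957), and for Sesn2 Hsd17b11 (0.984) and Klf9 (0.982). Atf5 was most like Psmc4 (0.955) and Bcap31 (0.953), and Asns most like Psmd14 (0.958) and Maged1 (0.958). The 12 points of a pair came from the same arrays, and the liver differences spanned the widest range. Psat1 and Phgdh were not compared because they missed the liver filter.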

How the data were processed

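Expression in AMY, NAC, PFC and liver was measured on Illumina arrays, and the labels' tissue, treatment and time gave the groups. The authors deposited, for each probe, a raw intensity together with a detection p-value, which compares the signal with that of background. The authors also deposited processed log2 values for 14667 probes, made with lumi (version not given in the sources used here) through a detection filter, variance stabilization and quantile normalization, with outlying values taken out. The scale and centring of that step within an array are unknown, and it was not rerun. The processed columns had medians of 7.97 to 8.00 in AMY, 7.88 to 7.90 in NAC, 8.08 to 8.13 in PFC and 7.96 to 8.00 in liver.

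Intensities of probes detected (p of at most 0.05) on over 80% of a tissue's arrays were converted to log2 and quantile normalized. Background was not subtracted, which understates the change of dim probes. At each time, treated mice were set against controls by limma 3.58.1 under R 4.3.3 (statmod 1.5.0), two-sided, and p-values were adjusted by Benjamini and Hochberg's method over a tissue's probes, with a threshold of 0.05. Effects were compared between times in 1 fit of the 6 groups of a tissue. Between tissues they were compared in 1 fit of all arrays, with the animal as a random block only as an alternative. That fit held the 14677 probes that passed the detection filter in at least 1 tissue. Figures used Python 3.11.15 and matplotlib 3.10.9.

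A gene was represented by its probe of highest mean intensity in the tissue. Of the annotated probes 13798 carry 1 symbol and 869 several or none. The text names every member and, of each list, up to 4 genes of smallest p that passed at 0 and 8 h, and the 2 genes most like each member. Ppp1r15a, Eif2ak2 and Creld2 at 0 h, the liver marker genes and the genes followed by animal were chosen after their values were seen. The members and lists were chosen with earlier results of these data known. The procedure was tested on simulated data. Alternatives were neqc (offset 16), median scaling, other detection filters, array weights, all groups in 1 fit, the processed values, a replicate block, other probes and each mouse left out in turn at 0 and 8 h (for brain at 0 h chosen after seeing the data; at 120 h only the array least like its group). Mice of different groups shared only a replicate number. The numbers of the intensity columns recur across tissues and were taken as animal numbers, which the labels do not state.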

Additional observations from a re-analysis of the deposited data

Results flagged for a closer look

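Single mice stood apart from their group in 8 of 156 groups of 7 or 8 values of a member gene, by the ratio of the gap to the range. This is near the share that chance flags, about 1 in 20 groups (5%). Ddit3 in treated liver at 8 h was at 2791.5 in animal 59, with the other 7 mice at 113 to 464. In controls at 0 h animal 18 stood apart for Ddit3 in NAC, at 374.4 with the others at 269.6 to 308, and for Psat1 in AMY, at 1042.1 with the others at 764 to 879.5. This control animal is not among the liver samples. Ddit3 in treated PFC at 0 h was at 358 in animal 39 (others 264 to 303.5). Asns stood apart in NAC controls at 120 h, at 2276.5 in animal 72 (others 1825 to 1955.5), and in treated PFC, low at 2032.5 in animal 65 at 0 h (others 2533 to 2869) and at 2433.3 in animal 19 at 8 h (others 2712 to 2898). Sesn2 in NAC controls at 120 h was at 107.9 in animal 8 (others 96.6 to 101).

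The effect of CIE vapor differed between times by a tested contrast in NAC, by 0.204 for Phgdh and 0.328 for Psat1 from 0 to 8 h and by 0.281 for Phgdh from 0 to 120 h, and in liver by −0.444 for Sesn2 from 8 to 120 h. It differed between liver and brain at 0 h by −0.66 for Asns, 0.505 for Atf4, −0.488 for Atf5, 0.945 for Ddit3, 0.147 for Phgdh, −0.863 for Psat1 and 0.323 for Sesn2. At 8 h it differed by 0.784 for Ddit3, −0.711 for Psat1 and 0.493 for Sesn2. The values are those of the brightest probe of each gene, and Psat1 and Phgdh entered the fit through brain only. These contrasts between liver and brain used 1 residual variance per probe over all tissues, though treated livers spread far more for Ddit3. In the limma fits of liver alone Ddit3 did not pass (adjusted p = 0.226 at 0 h and 0.161 at 8 h).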

How the results depend on the processing

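Of 1451 values recomputed for 76 results, 1294 kept their direction and their side of the threshold, 105 lost the call, 12 gained one and 40 changed sign, none of these while called. The fall of Phgdh in NAC at 0 h kept its call under all 25 alternatives (adjusted p 0.000401 to 0.0247) and the rise of Sesn2 in liver at 8 h under all 25. The liver calls at 0 h did not. Their number was 4, and 0 without the detection filter, 2 with the processed values, 0 with the replicate block and those values under either numbering of replicates, and 0 to 3 with each mouse left out. The numbers did not pair the mice, and the cause of these losses was not tested. In liver at 8 h the count of 1 became 2 with the looser filter, which added Psat1. In AMY at 0 h the count of 1 became 0 with neqc, median scaling, no filter and the replicate block. In AMY at 0 and 8 h it was 0 to 1 with each mouse left out. In NAC it rose at 0 h from 1 to 2 with all 6 groups in 1 fit (1 to 2 on leaving out mice), and at 8 h from 0 to 2 with median scaling, 1 with all groups and 1 with the replicate block, with 0 to 1 on leaving out mice. In PFC at 8 h the count of 1 became 0 with neqc, no filter and the processed values, and 0 to 1 with each mouse left out. For the change of the effect, the NAC count from 0 to 8 h went from 2 to 1 with median scaling and neqc, that from 0 to 120 h in AMY from 0 to 1 with the processed values, and that in liver from 0 to 1 with median scaling, the processed values and the replicate block. Between liver and brain, the calls of Phgdh at 0 h and Ddit3 at 8 h were lost in 2 of 7 alternatives each and that of Atf5 at 0 h in 1. Sign changes, none called, were Psat1 in AMY at 0 h (0.0061, processed values), Asns by other probes in AMY (−0.0236 at 0 h, 0.0018 at 8 h) and NAC at 8 h (0.0035, and 0.0334 with median scaling), Atf5 in PFC at 0 h (−8e-04 with median scaling, −0.0275 with array weights). With mice left out the ranges were −0.0222 to 0.0057 for Asns in NAC at 8 h, −0.0433 to 0.0151 for Phgdh in AMY at 8 h, −0.0343 to 0.0039 for Phgdh in NAC at 8 h, −0.0518 to 0.0082 for Psat1 in PFC at 8 h, −0.0016 to 0.0253 for Sesn2 in PFC at 8 h, −0.0982 to 0.0689 for Atf5 in liver at 8 h and, at 0 h, −0.0621 to 0.0063 for Psat1 in AMY, −0.0297 to 0.0838 for Atf5 and −0.0054 to 0.0632 for Ddit3 in NAC, and −0.06 to 0.0981 for Atf5 in PFC. Ddit3 in liver passed under none of its alternatives, and the processed values lack 1 of the 8 treated mice at 8 h. Signals near background limit Sesn2 in all tissues and Psat1 and Phgdh in liver.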
